A study of Mus musculus with 157 samples.

Results

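The genes described here are 5 members of the mouse Ly6 family, Ly6a, Ly6c1, Ly6c2, Ly6d and Ly6e. They were chosen by symbol, with earlier results of these data known, and are 5 of the 36102 genes listed in the deposited tables. The study profiled RNA and N6-methyladenosine (m6A), a methyl mark on adenosines of mRNA, in mouse blood-forming cells. Untreated wild-type cells of 16 labelled types gave input RNA libraries and libraries precipitated with an antibody against m6A (IP), with 2 of each per type. Untreated Mettl3 -/- and wild-type cells of 7 types gave 2 input and 2 IP libraries per genotype and type, and untreated Igf2bp2 -/- and wild-type LT.HSC gave 2 libraries each. Wild-type cells of 6 types were labelled with 4-thiouridine for 3 h, and wild-type LT.HSC and MkP were followed at 7 chase times after 24 h of labelling. The labels name no Cre driver, inducing agent, age or strain. Whether the 2 libraries of a group are separate animals is also not stated, so each p-value rests on a spread between samples that may be technical.

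Ly6 proteins are small molecules with a disulphide-stapled LU domain, and most are held on the outer cell surface by a glycosylphosphatidylinositol (GPI) anchor. They are best known in haematology as antigens for sorting. Ly6a is the stem cell antigen Sca-1, which is used to separate stem and multipotent cells from myeloid progenitors, and which lymphocytes also carry. Ly6c1 and Ly6c2 together make the Ly-6C antigen of monocytes, neutrophils and some T cells, Ly6d marks lymphoid progenitors committed to the B lineage, and Ly6e, also called Sca-2 or TSA-1, is broadly expressed. Several members are induced by interferon. In the type names, LT.HSC and ST.HSC are long-term and short-term haematopoietic stem cells, and MPP and LMPP are multipotent and lymphoid-primed multipotent progenitors. CLP and CMP are common lymphoid and common myeloid progenitors, GMP and MEP are granulocyte-monocyte and megakaryocyte-erythroid progenitors, and MkP is the megakaryocyte progenitor.

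All 5 genes lie on chromosome 15 of GRCm38, in the order Ly6d (74762056 to 74763567), Ly6e (74955025 to 74959904), Ly6a (74994877 to 74998031), Ly6c1 (75044018 to 75048920) and Ly6c2 (75108161 to 75112066), by RefSeq. Ly6a, Ly6c1 and Ly6c2 are close copies, so reads may be divided among them by the counting, and their values are also given as a sum. Promoters of 2 of the 5 members were found in the RefSeq promoter table of GRCm38.p6. They are shown because Ly6c1 and Ly6c2 both rose from CMP to GMP, while from CLP to the libraries labelled CD8 a rise passed the test for Ly6c1 alone. Each window runs 5′ to 3′ from 250 bases before to 50 after an annotated start on the minus strand, at chr15:75048788-75049087 for Ly6c1 and chr15:75111922-75112221 for Ly6c2. Capitals mark the bases with no identical partner in the other copy after global alignment.

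Ly6c1 promoter: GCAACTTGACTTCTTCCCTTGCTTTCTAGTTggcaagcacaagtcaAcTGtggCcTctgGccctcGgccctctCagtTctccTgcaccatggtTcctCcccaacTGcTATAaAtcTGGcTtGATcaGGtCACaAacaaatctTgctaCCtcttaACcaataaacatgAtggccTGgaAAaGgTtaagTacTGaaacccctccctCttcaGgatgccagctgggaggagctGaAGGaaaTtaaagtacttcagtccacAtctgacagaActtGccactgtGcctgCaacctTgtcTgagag

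Ly6c2 promoter: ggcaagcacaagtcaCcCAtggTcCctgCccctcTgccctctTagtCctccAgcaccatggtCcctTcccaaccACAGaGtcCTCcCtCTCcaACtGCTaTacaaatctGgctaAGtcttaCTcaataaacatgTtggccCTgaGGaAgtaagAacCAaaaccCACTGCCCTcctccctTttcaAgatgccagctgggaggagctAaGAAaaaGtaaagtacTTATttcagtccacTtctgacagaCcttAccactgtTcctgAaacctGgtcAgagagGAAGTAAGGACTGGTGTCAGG

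Of 266 aligned bases, 208 (78.2%) were identical. The motif TTCNNNGAA and the core of the interferon-stimulated response element (a pair of GAAA with any 2 bases between), searched on both strands, were in neither window. They were in 8.30% and 3.44% of the 32851 promoters of that length. TATAAA was found 1 time in the Ly6c1 window and not in that of Ly6c2, against 13.6% of promoters. GAGGAAGT, which was picked after the Ly6c2 window had been read, was there 2 times and not in the Ly6c1 window, against 3.20% of promoters. A match is a string of letters, not a measured site, and its absence says only that these letters are not in the window.

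Some libraries went against their labels. Those labelled CD4 held the CD8 markers Cd8a and Cd8b1 at 2436 to 2660 CPM (counts scaled to the same total in each library), and Cd4 at 0.729 to 1.31. Those labelled CD8 held Cd8a and Cd8b1 at 14.98 to 15.7, and Cd4 at 129 to 130. The libraries labelled Monocyte held Ly6g, a neutrophil marker, at 819 and 732 CPM, near the 834 and 879 of those labelled Neutrophil. Their 7 neutrophil markers summed to 184393 to 196733 CPM, against 70893 to 71759 in Neutrophil, and their 6 monocyte markers to 606 to 709, against 1102 to 1150. The libraries labelled CLP had the highest monocyte sum of the 16 types, at 2800 and 2814. Input totals on the deposited scale ran from 6.81 to 113 M, with Monocyte highest, while the reads behind them ran from 8.23 to 21.5 M, so levels across types are given here in CPM, with the deposited scale beside each test. Values are not divided by transcript length, so levels are compared between cell types and not between genes.

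In the wild-type atlas, all 5 members differed among the 16 types (limma F test on log2 of the deposited value plus 1, all adjusted p at most 9.65e-09). That background was wide, with 92.8% of 17165 genes called. The plot of levels by type shows the 32 libraries.

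**Figure D1:**
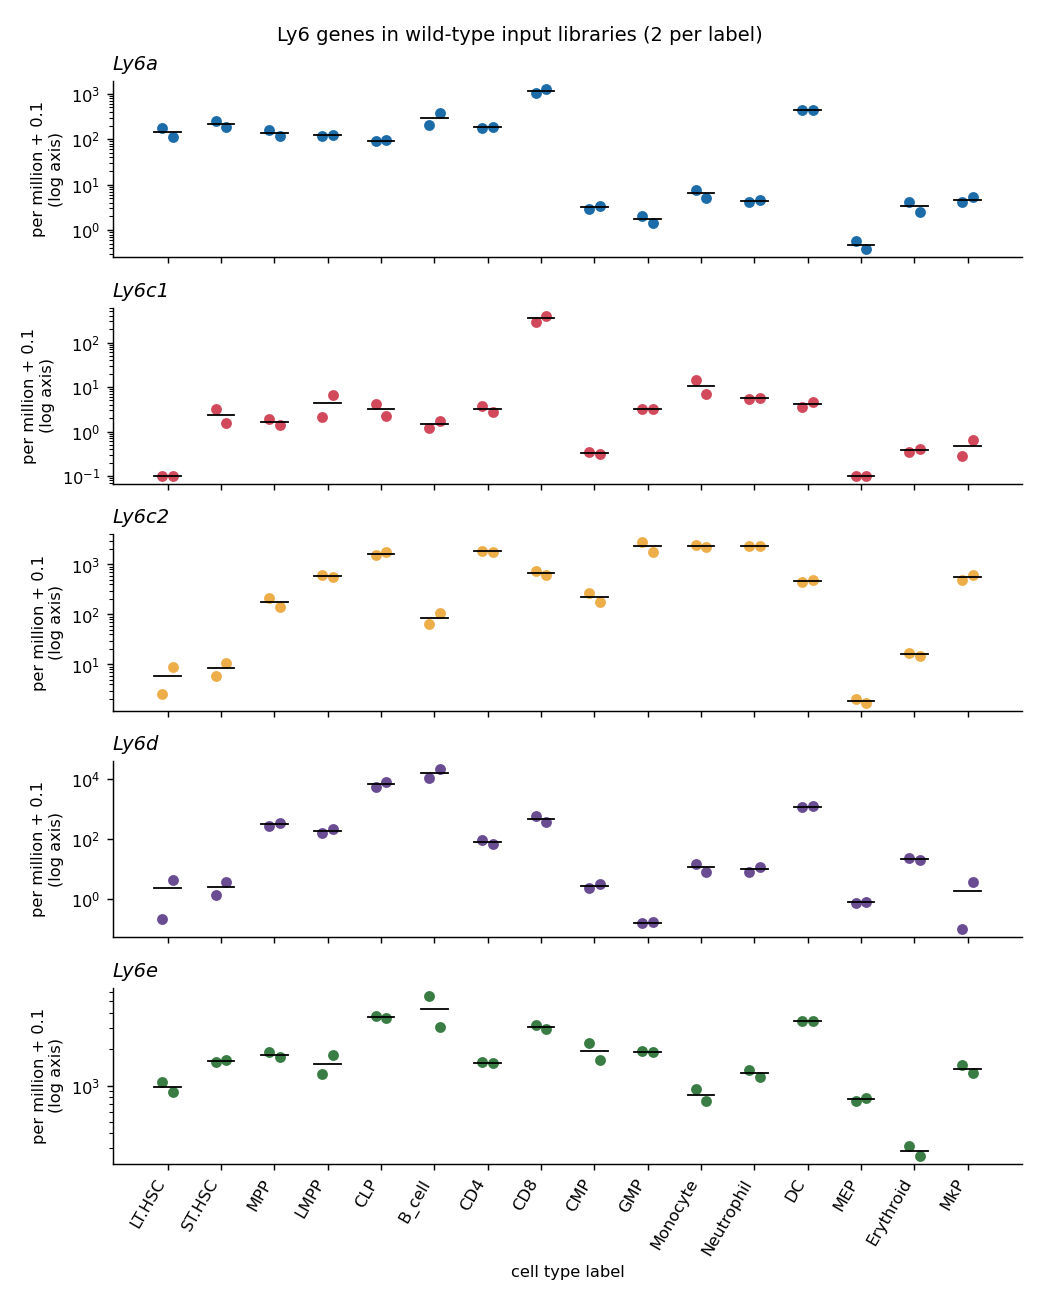
Level of each Ly6 gene in the wild-type input libraries, in CPM plus 0.1 on a log axis, for the 16 cell type labels. Points are the 2 libraries and lines their mean. Ly6a falls from 139 CPM in MPP to 3.13 in CMP, Ly6c2 is at 1804 or more CPM in each GMP, Monocyte, Neutrophil and CD4 library, and Ly6e has its lowest library, in Erythroid, at 259 CPM.

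On the CPM scale Ly6a, the Sca-1 gene, split the types in a high and a low set. Its level was 1164 ± 153 CPM in the libraries labelled CD8 (SD, n = 2), 442 ± 8.92 in DC, 297 ± 126 in B_cell and 216 ± 43.9 in ST.HSC. The libraries labelled CD4 (181 and 186 CPM), LT.HSC (176 and 111), MPP (161 and 116), LMPP (119 and 124) and CLP (92.4 and 94.9) followed. The other 7 types were below 10 CPM: the single libraries were at 7.67 and 4.998 in Monocyte, 2.87 and 3.39 in CMP, 1.93 and 1.37 in GMP, and 0.481 and 0.279 in MEP. Of 15 pairs of neighbours in the order of levels, 7 had libraries that did not overlap, against 23.1% of such pairs over all tested genes. On the log2 scale of deposited values, Ly6a fell by 5.07 from MPP to CMP (SE 0.39, limma adjusted p = 1.83e-08) and by a further 2.80 from CMP to MEP (adjusted p = 6.11e-06). It rose by 3.62 from CLP to the libraries labelled CD8 (limma adjusted p = 2.66e-07). From CLP to B_cell it rose by 2.44 (limma adjusted p = 4.94e-05) and from GMP to DC by 7.17 (adjusted p = 1.06e-12). In both of these steps the sum of the 3 close copies fell, as given below. From GMP to Monocyte Ly6a rose by 4.26 (limma adjusted p = 3.76e-09), and by 1.88 on the CPM scale (adjusted p = 4.95e-05). Monocyte had the highest deposited totals, so its place in the low set applies to the CPM scale. Sca-1 is itself an antigen used to separate multipotent cells from myeloid progenitors. The part of sorting in the Ly6a fall from MPP to CMP was not tested.

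Ly6c2, a gene of the Ly-6C antigen, was high in granulocyte-lineage libraries and near absent in stem cells. Its 2 libraries were at 2489 and 2221 CPM in Monocyte, 2308 and 2307 in Neutrophil, 2773 and 1804 in GMP, 1857 and 1809 in those labelled CD4 and 1552 and 1748 in CLP. Levels in these first 4 types overlapped from each neighbour to the next. LT.HSC was at 2.46 and 8.91 CPM, ST.HSC at 5.88 and 10.7, and MEP at 1.97 and 1.63. Ly6c2 rose by 4.42 in log2 from ST.HSC to MPP (limma adjusted p = 1.62e-06), by 1.93 from MPP to LMPP (adjusted p = 0.0156) and by 4.10 from CMP to GMP (adjusted p = 4.11e-06). Without the second MPP library the rise from MPP to LMPP was 1.54 (adjusted p = 0.250), and without the first LMPP library it also lost its call (adjusted p = 0.140). Over the same step the 7 neutrophil markers summed to 153 to 154 CPM in MPP and to 4147 to 11027 in LMPP, and 5 GMP markers to 5734 to 6594 and 10379 to 22568. The part of those markers in the Ly6c2 rise was not tested. Ly6c2 fell by 6.86 from CMP to MEP (adjusted p = 1.08e-10), and MkP lay 8.38 above MEP (adjusted p = 2.67e-12). The MkP libraries also held the GMP markers at 48951 to 68480 CPM, the highest sum after GMP itself, against 39.3 to 59.9 in MEP. Their neutrophil markers summed to 1344 to 3478, against 2.23 to 3.66 in MEP, and the part of both lists in the MkP level of Ly6c2 was not tested. From GMP to Monocyte the rise of 2.45 (adjusted p = 0.000228) did not hold on the CPM scale, where it was 0.07.

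Ly6c1, the second gene of the Ly-6C antigen, was above 100 CPM in a single label. The libraries labelled CD8 were at 294 and 402 CPM, and the next type, Monocyte, was at 14.4 and 7.04. The other 14 types had means below 10 CPM, and both LT.HSC and both MEP libraries were at 0. A fold against those types would depend on the pseudocount. From GMP to Monocyte Ly6c1 rose by 4.03 on the deposited scale (limma adjusted p = 3.51e-06) and by 1.65 on the CPM scale (adjusted p = 0.0192). Ly6c1 rose with Ly6c2 from CMP to GMP, by 4.07 in log2 (limma adjusted p = 4.01e-05), on levels of 0.249 and 0.207 CPM in CMP and 3.14 and 3.17 in GMP. From CLP to the libraries labelled CD8 it rose by 6.81 (adjusted p = 1.04e-08), while the Ly6c2 estimate there was -1.28 (adjusted p = 0.0685).

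Ly6d, the marker of B-lineage commitment, covered the widest range, from 0.0662 CPM in GMP to 15829 in B_cell. B_cell libraries were at 10599 and 21059 CPM, CLP at 5342 and 7701, DC at 1118 and 1235, the libraries labelled CD8 at 565 and 353, and MPP at 278 and 347. LT.HSC was at 0.123 and 4.30, and GMP at 0.0604 and 0.0720. Ly6d rose by 7.10 in log2 from ST.HSC to MPP (limma adjusted p = 0.00146) and by 5.39 from LMPP to CLP (adjusted p = 0.0121), and fell by 6.49 from MPP to CMP (adjusted p = 0.00453). The LMPP to CLP call was lost without either CLP library or the second LMPP library (adjusted p from 0.0634 to 0.0728), and the MPP to CMP call without either CMP library or the second MPP library (adjusted p from 0.0504 to 0.0524). The 6 DC markers summed to 157 to 201 CPM in LMPP and to 1849 to 2595 in CLP, above the 1453 to 1480 of DC itself, and the 6 monocyte markers to 1110 to 1595 in LMPP and 2800 to 2814 in CLP. Their part in the rises of Ly6d and Ly6e from LMPP to CLP was not tested. Ly6d rose by 12.39 from GMP to DC (adjusted p = 2.91e-07). In the DC libraries the 5 B cell markers summed to 2351 and 2606 CPM, against 30755 and 38157 in B_cell, and the part of those markers in the Ly6d level of DC was not tested.

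Ly6e was detected in every library, with type means from 287 CPM in Erythroid to 4320 in B_cell. B_cell (5598 and 3043), CLP (3765 and 3620), DC (3468 and 3469) and the libraries labelled CD8 (3178 and 2968) were the 4 highest types. LT.HSC (1077 and 880), Monocyte (935 and 748) and MEP (739 and 792) were low in CPM, and Erythroid (315 and 259) was lowest. From MEP to Erythroid the difference was -1.42 on the CPM scale (limma adjusted p = 2.42e-05). On the deposited scale it was 0.40 (limma adjusted p = 0.423), so the order of these 2 types depends on the scale. Ly6e rose by 1.54 from LMPP to CLP (limma adjusted p = 0.00797) and fell by 1.33 from CMP to MEP (adjusted p = 0.00935). The rise was not called without the first CLP library (adjusted p = 0.0975), and the fall was 0.83, not called, without the first CMP library (adjusted p = 0.213) and also lost its call without either MEP library. From GMP to Monocyte Ly6e rose by 1.18 on the deposited scale (adjusted p = 0.00858) but was -1.197 on the CPM scale (adjusted p = 0.000132), and from CLP to B_cell the rise of 1.00 (adjusted p = 0.0392) was 0.16 on the CPM scale. The CPM scale moved the median of all genes from 0 to -1.63 for GMP to Monocyte, so the sign of the Ly6e difference there depends on the scale.

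Over the 15 lineage steps, 41 of 75 pairs of member and step passed the threshold, with 30 higher and 11 lower at the later type. Over all genes, 21% of pairs of gene and step were called. Ly6c2 changed in 10 steps, Ly6a and Ly6d in 9 each, Ly6c1 in 7 and Ly6e in 6. Of the other 35 relatives in the family list, 21 were tested. From LMPP to CLP 3 of them rose, Plaur (the urokinase receptor, 2.04), Lynx1 (3.52) and Ly6k (2.17), and Cd59a, an inhibitor of complement, fell by 2.16. Their median was 0 as was that of all genes, of which 6.89% were called in that step. More relatives passed in the steps with most calls over all genes: 10 rose and 4 fell from GMP to Monocyte, where 45.7% of all genes were called, and 10 rose and 1 fell from GMP to DC, where 46.3% were. From CLP to B_cell 5 rose and 2 fell (26.6% of all genes), from CMP to GMP 1 rose and 1 fell (4.98%), and from MPP to CMP none of the 21 passed (3.11%).

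The 3 close copies, summed to 1 value, changed in some of the same steps. The sum rose by 4.08 from CMP to GMP and fell by 6.62 from CMP to MEP, but the difference from MPP to CMP was -0.14 (adjusted p = 0.983), where Ly6a fell and the Ly6c2 estimate was 0.68 (limma adjusted p = 0.732). In some steps where Ly6a rose, the sum fell. It was -1.40 from CLP to B_cell (limma adjusted p = 0.0181), where Ly6c2 fell by 3.47 (adjusted p = 1.01e-05). From GMP to DC it was -2.16 (limma adjusted p = 0.000233), where Ly6c2 fell by 3.12 (adjusted p = 1.35e-05). The summed reads were 95.6% Ly6a in LT.HSC and 95.2% in ST.HSC. In MPP they were 43.9% Ly6a and 55.6% Ly6c2, in LMPP 17.1% and 82.3%, in CMP 1.45% and 98.4%, and in GMP 0.0726% and 99.8%. The libraries labelled CD8 were the only type with more than 2% Ly6c1, at 15.8%, beside 52.9% Ly6a and 31.4% Ly6c2. The 7 neutrophil markers summed to 14434 to 25734 CPM in the libraries labelled CD8, the highest sum after Monocyte and Neutrophil. The part of those markers in the Ly6c2 level and share there was not tested. In MEP the sum was 2.45 and 1.90 CPM, so its shares rest on few reads.

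**Figure D2:**
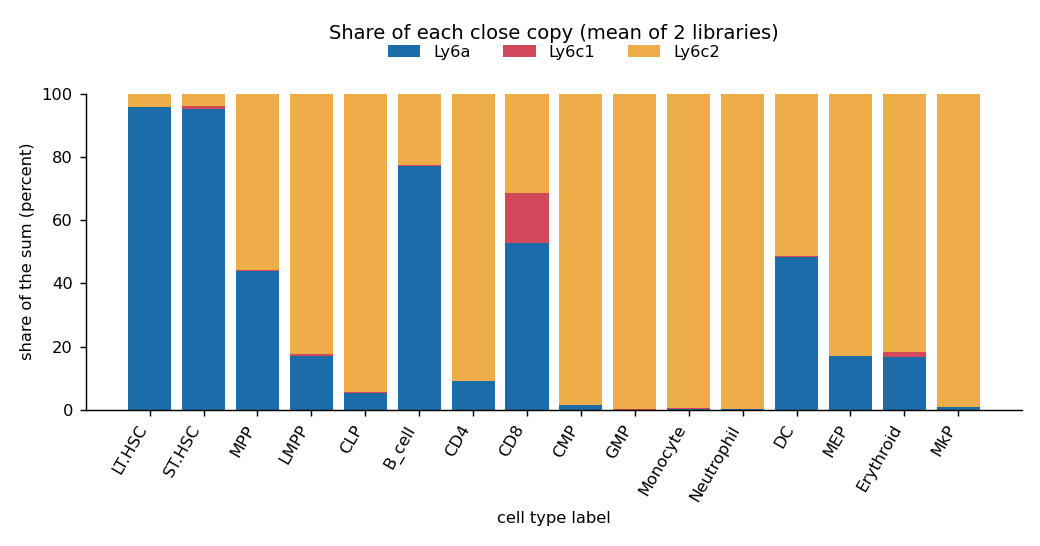
Share of Ly6a, Ly6c1 and Ly6c2 in their summed reads, in percent, as the mean of 2 wild-type input libraries for each of the 16 cell type labels. Ly6a makes up 95.6% in LT.HSC and Ly6c2 98.4% in CMP.

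The genes with the most similar pattern over the 16 type means, among 10366 genes, were described by Pearson r of mean log2 values, with no test. For Ly6d they were Iglc3 (0.96), Iglv3 (0.95), Mzb1 (0.95), Fcrla (0.94) and Blnk (0.94), genes of the B lineage. For Ly6c2 they were Slpi (0.94), Ly6a2 (0.93), Atp8b4 (0.92), C3 (0.91) and Igsf6 (0.90). For Ly6a, Camk2d (0.92), Ccl4 (0.90), Lpp (0.90), Ifi203 (0.90) and Sesn3 (0.89) came first, and for Ly6c1, Tnf (0.85), Mgst2 (0.84), Cd53 (0.83), Tnfaip8l2 (0.83) and Hsd11b1 (0.82). For Ly6e they included Tax1bp3 (0.89), Actb (0.87), Serp1 (0.87) and Rgs2 (0.86), of which Actb had 0.63 on the CPM scale. Type means share libraries and their scaling.

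The interferon list was set beside the members since several are interferon-inducible. From MPP to CMP, where Ly6a fell, 5 of its 14 genes fell and none rose (median -0.90, all genes -0.06), where 3.11% of all genes were called, among them Ifit3 (-3.65), Rtp4 (-2.28) and the transcription factor Irf7 (-1.89). From LMPP to CLP, where Ly6e and Ly6d rose, 6 rose and 1 fell, with Bst2 (tetherin) at 2.90, Irf7 at 2.02 and Rtp4 at -1.77, where 6.89% of all genes were called. From CLP to B_cell, where Ly6a and Ly6e rose on the deposited scale, 9 of the 14 fell and none rose (median -1.27, all genes 0.04). Ly6c2 also fell there, by 3.47 (limma adjusted p = 1.01e-05). In that step 26.6% of all genes were called. From CMP to GMP, where Ly6c1 and Ly6c2 rose, 3 fell and none rose (median -0.64, all genes -0.03), where 4.98% of all genes were called. From GMP, 12 rose and 1 fell to Monocyte (45.7% of all genes called), and 13 rose and none fell to DC (46.3%). From CMP to MEP, where Ly6a, Ly6c1, Ly6c2 and Ly6e fell, 3 fell and none rose (17.3% of all genes called). From MEP, 12 rose and 1 fell to Erythroid (33.9%), and 8 rose and 1 fell to MkP (28.8%). The part of interferon in the changes of the members was not tested. Of the 28 tested genes of GPI-anchor synthesis and transfer, none passed from MPP to CMP or from LMPP to CLP, with medians of 0.07 and -0.01. From GMP, 5 of these 28 rose and 9 fell to Monocyte, and 4 rose and 5 fell to DC.

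In the IP libraries, a gene's m6A enrichment was taken as the log2 difference of IP over input, and was tested only between types. Ly6c2 (limma F test, adjusted p = 0.00276) and Ly6e (adjusted p = 0.00512) differed among types, against 25.1% of genes, and Ly6a, Ly6c1 and Ly6d did not pass. Against the mean of the other 15 types, 4 of 80 pairs of member and type passed, against 3.29% of all pairs. The enrichment of Ly6c2 in LT.HSC was 3.34 higher (SE 0.51, adjusted p = 3.98e-05). Its libraries were at 2.46 and 8.91 CPM in the input and 63.5 and 41.5 in the IP, with no overlap. In the same libraries the 7 neutrophil markers summed to 186 and 303 CPM in the input and to 1332 and 1047 in the IP, with Ly6g at 0 in both IP libraries. The part of such RNA in the Ly6c2 difference was not tested. For the summed copies the LT.HSC difference was 1.33 (adjusted p = 0.0357).

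The 3 other differences were lower. Ly6c2 was 1.70 lower in Monocyte (adjusted p = 0.0446), Ly6e was 1.15 lower in Monocyte (adjusted p = 0.0323) and Ly6e was 1.13 lower in B_cell (limma adjusted p = 0.0401). These 3 calls lay near the threshold. Over the 64 fits that each left out 1 library, Ly6c2 in Monocyte lost its call in 18 (adjusted p up to 0.252, without the first Monocyte IP library) and Ly6e in B_cell in 10, with -0.66 without the first B_cell input library (adjusted p = 0.319). Ly6e in Monocyte lost its call in 4, without each of the 4 Monocyte libraries (adjusted p from 0.0561 to 0.185). Without the libraries labelled CD4, CD8 and Monocyte, an alternative chosen after the data were seen, Ly6c2 in LT.HSC was 3.45 higher (adjusted p = 0.000171) and Ly6e no longer differed past the threshold among types (adjusted p = 0.138). The Ly6c1 value in those labelled CD4 was 3.04 higher but did not pass (limma adjusted p = 0.161). Its IP libraries labelled CD4 were at 2.37 and 165 CPM, and the Cd4 transcript itself ran from 0 to 132 CPM across those 2 libraries.

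**Figure D3:**
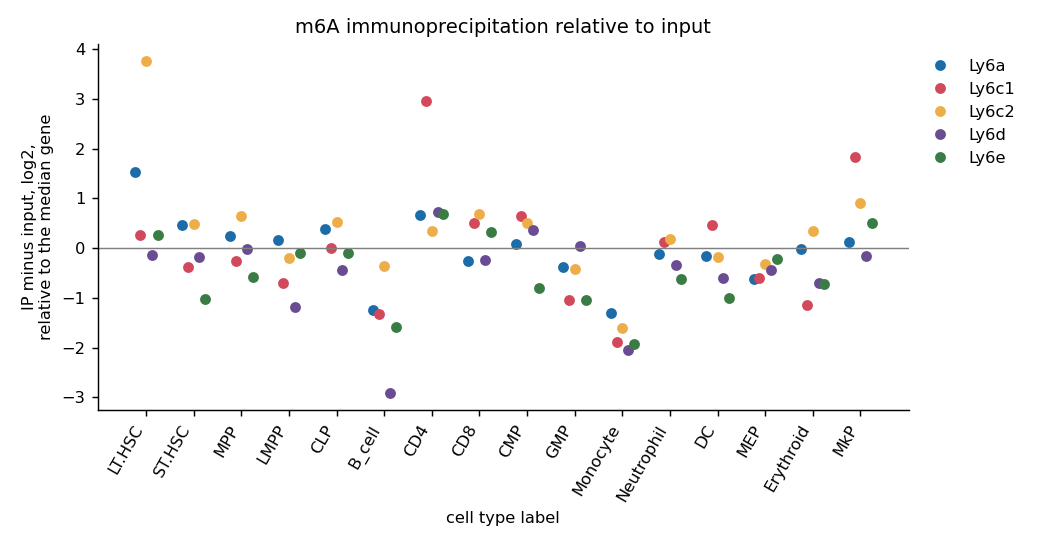
m6A enrichment (log2 IP minus log2 input) of each Ly6 gene relative to the median gene of the same type, as 1 value per type from the means of 2 IP and 2 input wild-type libraries. Ly6c2 in LT.HSC is at 3.77 above the median gene, in the 98.9 percentile, and Ly6d in B_cell at -2.92.

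The next comparison asked how the genes behave without Mettl3, the catalytic subunit of the m6A methyltransferase. The Mettl3 transcript itself was at 30.3 to 99.4 CPM in the 14 libraries labelled Mettl3 -/- and at 10.2 to 586 in the 14 wild-type ones, with medians of 51.6 and 52.3, so its level does not check the labels. Which exons were removed is not stated. Averaged over the 7 types, Ly6a rose by 1.64 in log2 in the libraries labelled Mettl3 -/- (SE 0.46, limma adjusted p = 0.0257) and Ly6c1 by 1.83 (SE 0.47, adjusted p = 0.0140). Ly6e (0.59, adjusted p = 0.0530), Ly6c2 (0.45, adjusted p = 0.513) and Ly6d (0.64, adjusted p = 0.528) did not pass, so 2 of 5 members were called against 10.1% of 15030 genes.

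The Ly6a values were 1201 and 5026 in LT.HSC labelled Mettl3 -/- against 522 and 617 in wild type, on the deposited scale. They were 2229 and 1479 against 1111 and 778 in ST.HSC, and 711 and 2073 against 303 and 548 in MPP. In MEP they were 51.7 and 111 against 2.77 and 16.9. The groups did not overlap in these 4 types and in GMP (54.4 and 71.2 against 8.09 and 45.3), and overlapped in CMP (12.5 and 155 against 28.3 and 46.2) and MkP (14.8 and 105 against 2.56 and 43.2). The mean was higher in the labelled knockout in 7 of 7 types. Of all 15030 tested genes, 4.26% had labelled knockout libraries above wild type in at least 5 of 7 types, and 6.33% had a higher mean in 7 of 7. In MEP, the 5 HSC markers summed to 37.8 to 97.6 CPM in the labelled knockout and 4.91 to 9.03 in wild type. The 5 megakaryocyte markers were at 197 to 447 against 26.6 to 80.7 and the 5 B cell markers at 20.3 to 42.1 against 2.32 to 5.08 there, and their part in the Ly6a difference in MEP was not tested. Leaving out 1 library ended the call in 8 of 28 cases (adjusted p from 0.0503 to 0.0603). These were the second labelled knockout library of CMP, GMP, LT.HSC, MEP, MPP and MkP, the first of ST.HSC, and the first wild-type MEP library. The differences over all 28 cases ran from 1.39 to 1.90. With a single mean per genotype and replicate number, 2 against 2, the same difference had an adjusted p of 0.405.

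Ly6c1 was low throughout. It was at 0 in 9 of 14 wild-type and 3 of 14 labelled knockout libraries, and its highest values were 63.4 (LT.HSC), 33.5 and 15.3 (ST.HSC) in the latter. With the edgeR test on the whole reads recovered from the deposited values, Ly6c1 was not called (adjusted p = 1.00) and Ly6a was (1.64, adjusted p = 0.0155). The summed copies were 0.61 higher (adjusted p = 0.136), with 4 of 7 types higher. Over all 35 pairs of member and type none passed, against 0.419% of all pairs.

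The first labelled knockout ST.HSC library stood apart for Ly6c2 (1381, against 106 in the second and 37.6 and 54.4 in wild type) and Ly6d (308, against 35.0, 4.88 and 0.403). Its 7 neutrophil markers summed to 2035 CPM and its 5 T cell markers to 47.3, against 415 and 2.61 in the second, and their part in these values was not tested. Ly6c2 went the other way in MkP, at 27.6 and 53.2 against 334 and 152 in wild type (-2.52, limma adjusted p = 0.465). Ly6e values ran from 3771 to 15756 in the labelled knockout and from 2745 to 12531 in wild type, higher in mean in 7 of 7 types and without overlap in 2, LT.HSC (7384 and 14027 against 3264 and 4790) and MPP (9971 and 13565 against 6205 and 6774), against 29.8% of genes without overlap in this direction in at least 2 types. The averaged Ly6e difference lay at the threshold. It passed with TMM factors (0.61, limma adjusted p = 0.0474), with replicate number as a block (adjusted p = 0.0379) and in 8 of 28 fits without 1 library (adjusted p from 0.0212 to 0.0491). Those 8 were without the first labelled knockout library of LT.HSC, MEP, MPP or MkP, the second of ST.HSC, the second wild-type library of LT.HSC or MEP, and the first of ST.HSC. No member passed the test of a change that differs among types (limma interaction F test, adjusted p = 1.00 for each). Of all 15030 genes, 2 passed it. The unadjusted p was 0.0344 for Ly6c2 and 0.0334 for Ly6d, so equal changes among types were not shown.

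**Figure D4:**
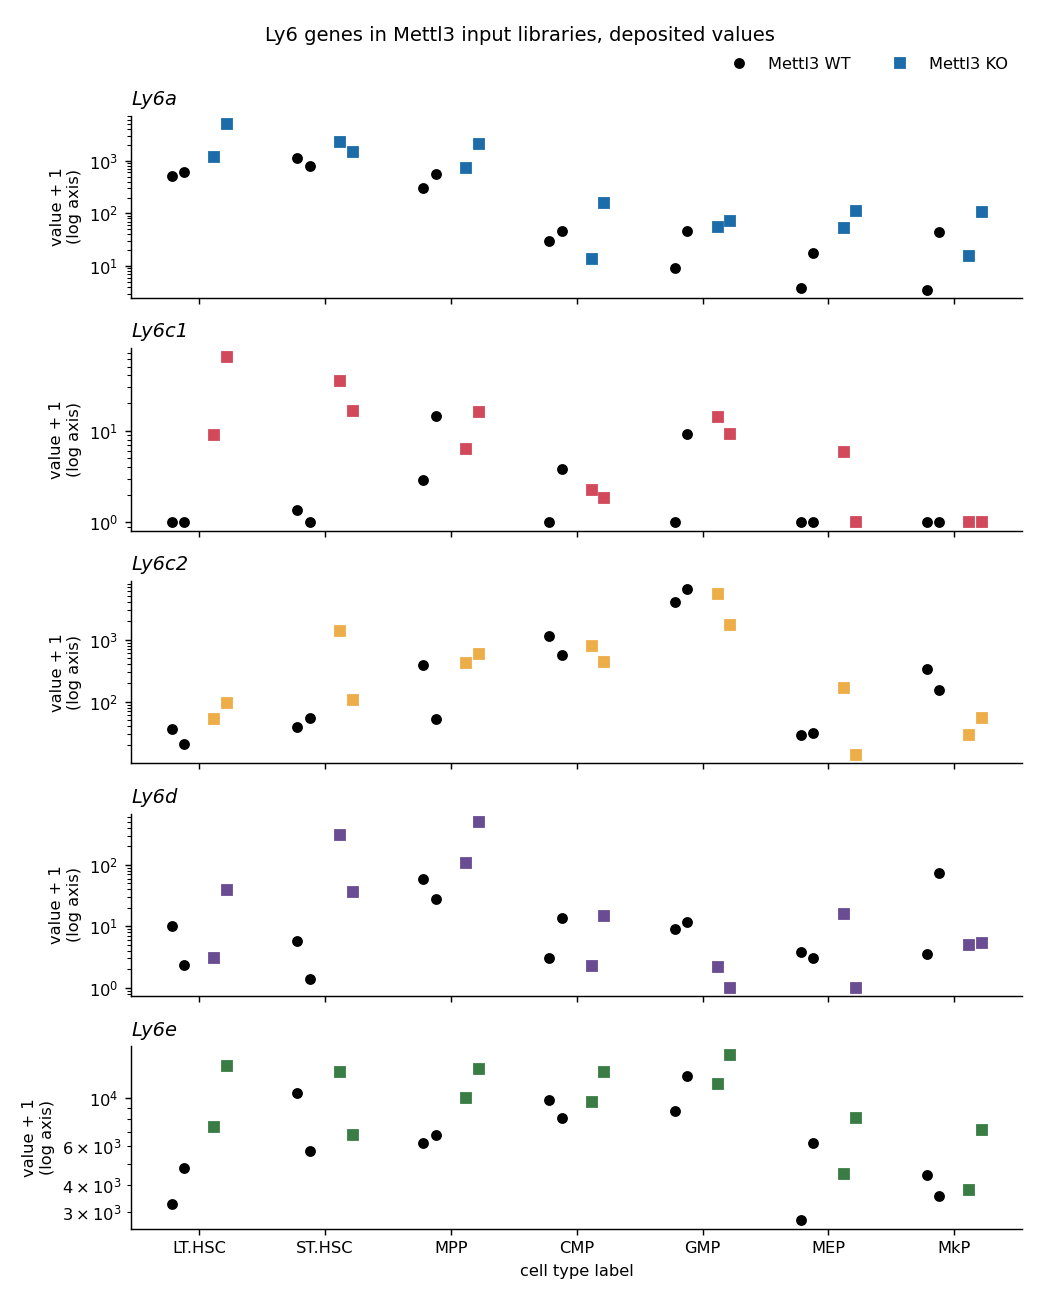
Deposited input value plus 1 of each Ly6 gene, on a log axis, in the 7 cell types of the Mettl3 set. Black circles are the 2 wild-type libraries and coloured squares the 2 libraries labelled Mettl3 KO. Ly6a is higher in mean in the labelled knockout in 7 of 7 types, and the first knockout ST.HSC library stands apart for Ly6c2 and Ly6d.

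Among relatives, 2 of 14 tested rose on the Mettl3 average, Cd177 (a neutrophil surface antigen, 3.11) and Plaur (1.45), with a median of 0.27 against -0.06 over all genes. Of 14 interferon genes, 4 rose, Rtp4 (1.13), Ifit3 (1.08), Isg15 (1.03) and Usp18 (0.92), and none fell, with a median of 0.51. Of 27 tested GPI-anchor genes, 2 rose, Pigk (0.92) and Pigc (0.60), and 2 fell, Pigp (-0.80) and Pigv (-0.67). Over all 15030 tested genes, 10.1% were called on this average, the share to set beside each of these counts.

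No change in the m6A enrichment of a member passed the test between genotypes. The differences averaged over the 7 types were 0.30 for Ly6a, -1.29 for Ly6c1, -0.41 for Ly6c2, 0.12 for Ly6d and -0.41 for Ly6e, with SE from 0.33 to 1.02, and 0 of 5 passed in limma, against 0% of 14575 genes and 654 genes at an unadjusted p below 0.05. Scaling each library to its own total would hide a loss common to every transcript. In the estimated counts of these IP libraries, reads were divided among the copies: Ly6a, Ly6c1 or Ly6c2 held a fraction in 20 of 28 libraries, beyond a tolerance of 0.05, and Ly6d and Ly6e in none. In the first labelled knockout MkP IP library, Ly6a was 18.1, Ly6c1 1.09 and Ly6c2 555, which sum to 574. In 7 of the 20 libraries the sum of the 3 copies was whole again. In the rest it was not, so the sum may not hold all of the divided reads.

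Igf2bp2 encodes an RNA-binding protein that reads m6A. Its own transcript was at 12.5 and 13.03 CPM in the LT.HSC libraries labelled Igf2bp2 -/- and at 7.11 and 53.5 in the wild type, so the groups overlap and the level does not check the labels. None of the 4 members tested passed in edgeR, and neither did any of the 12221 genes (0%), with 777 at an unadjusted p below 0.05. Ly6a was at 51.7 and 72.5 CPM in the labelled knockout and 51.0 and 60.4 in wild type, and Ly6e at 257 and 463 against 366 and 206. Ly6d had 207 and 29 counts against 4 and 0, and Ly6c2 had 275 and 144 against 273 and 3. Ly6c1 had 1 count in all 4 libraries and was not tested.

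The Ly6d difference of 7.90 had an adjusted p of 0.618 in edgeR. It passed with DESeq2 (8.07, adjusted p = 8.47e-05), which called 151 of 18546 genes, and in edgeR with no filter (7.74, adjusted p = 0.00180). Leaving out 1 library moved it from 5.22, without the first labelled knockout library, to 10.30, without the first wild-type one (edgeR adjusted p from 0.152 to 1.00). In the same libraries the 7 neutrophil markers summed to 1745 and 852 CPM in the labelled knockout and to 330 and 93.7 in wild type. The 5 GMP markers summed to 457 to 3613 CPM against 170 to 205. The 5 B cell markers summed to 168 and 115 against 56.7 and 89.9, with 1 and 2 of them at 0 in the labelled knockout and 2 in each wild-type library. All 3 sums were higher in each knockout library than in each wild-type one, and their part in the Ly6d difference was not tested.

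New RNA was measured as the percentage of T-to-C changes per gene after the 3 h pulse, and no member differed among 6 types (0 of 5, limma, against 0% of 13909 genes and 1695 at an unadjusted p below 0.05). Over the 5 lineage steps 0 of 25 pairs passed, against 0.0374% of all pairs. Ly6e was at 0.846% and 0.998% in MEP and 0.0741% and 0.0847% in GMP, where the medians of all genes were 0.820% and 0.704%. Ly6c2 was lowest in MEP (0% and 0.0538%) and highest in ST.HSC (0.297% and 0.367%), where the median was 0.842%. Ly6d was at 0% in both LT.HSC and both GMP libraries, and its CMP libraries were at 5.99% and 0%. The depth behind these ratios is unknown.

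The chase ratios were deposited in tables titled as averages and carry no error. The labels list 2 samples per time in LT.HSC but 1 in MkP, so each MkP value rests on 1 sample. In LT.HSC, Ly6c2 went from 1.31% at 0.5 h to 0.807% at 1 h, 0.294% at 3 h and 0.0395% at 6 h, was listed with no value at 9 h, and was 0.433% at 12 h. Ly6c1 went from 0.962% at 0.5 h to 0.00511% at 6 h, with no value at 9, 12 or 24 h, and Ly6c2 had none at 24 h. In the LT.HSC input libraries of the atlas Ly6c1 was not detected and Ly6c2 was near absent. The chase ratios of both may therefore rest on few reads. Ly6a was between 0.0103% and 0.162% at the 7 times and Ly6e between 0.0173% and 0.291%. In MkP, Ly6c2 stayed between 0.129% and 0.629%, with 0.466% at 0.5 h and 0.129% at 24 h, and Ly6e went from 0.247% to 0.0140%. Ly6d had a value at 2 of 7 times in each type. The median ratio of all genes with a value also moved, and not evenly. In LT.HSC it was 0.0561% at 0.5 h, 0.161% at 1 h, 0.0276% at 3 h, 0.0232% at 6 h, 0.0212% at 9 h, 0.0221% at 12 h and 0.0919% at 24 h. In MkP it was 0.0697%, 0.0526%, 0.0446%, 0.0165%, 0.0157%, 0.0282% and 0.0158% at the same times.

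**Figure D5:**
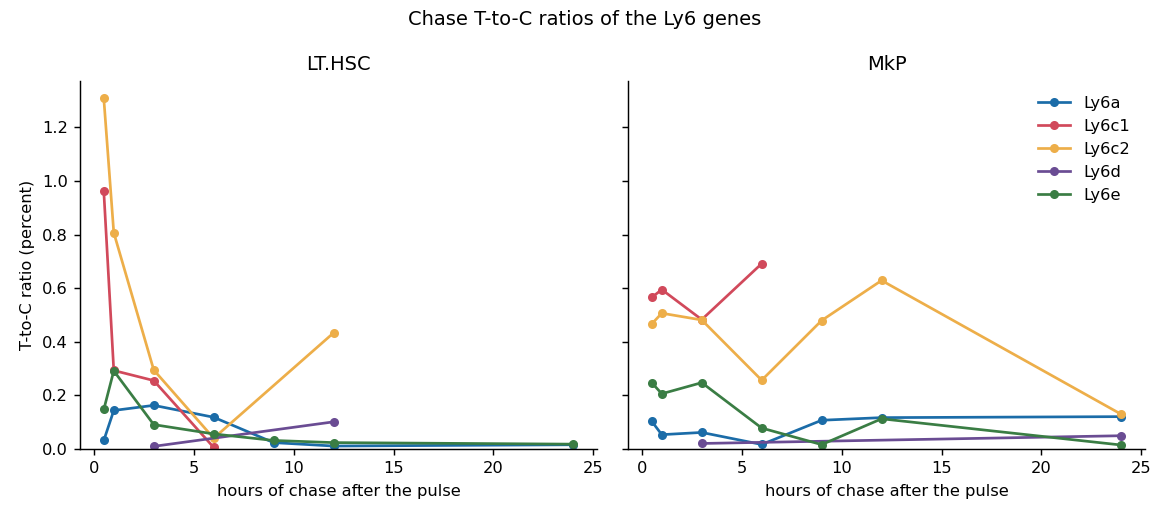
T-to-C ratio of each Ly6 gene, in percent, over the hours of chase after the pulse, in LT.HSC and MkP. Points are the authors' deposited values, from 2 samples per time in LT.HSC and 1 in MkP, with no error, and lines join the times that have a value. Ly6c2 starts at 1.31% in LT.HSC and at 0.466% in MkP.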

How the data were processed

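Input values of the wild-type atlas and the Mettl3 set are a normalised signal that the authors deposited per gene, counts divided by a size factor of each library, and whole reads were recovered from them (100% of the low values, within 0.1 of a read). The authors deposited counts for the atlas IP and Igf2bp2 libraries, and estimated counts for the Mettl3 IP libraries. For 4-thiouridine labelling the authors deposited a fraction per gene, its T-to-C ratio, given here in percent. Per the submitters' processing notes, fastp, Trimmomatic, kallisto and GRCm38 were used. Their versions and roles are not given in the sources used.

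The input tests used log2(value + 1) and limma 3.58.1 (R 4.3.3) with trended, robust moderation, over genes of at least 10 in at least 2 libraries. IP and input were fitted jointly with limma after TMM scaling, with trended moderation and the same filter, after the estimated counts were rounded to whole numbers. Igf2bp2 counts were tested with the edgeR 4.0.16 quasi-likelihood test, with DESeq2 1.42.0 as an alternative, and new RNA with limma on log2(percent + 0.1) over genes above 0 in at least 6 libraries. Adjusted p-values are Benjamini-Hochberg values over all genes tested, with a threshold of 0.05, and fold changes understate changes near 0. Fits were tested on simulated data. Per gene, the 5 most similar patterns were named, except where a gene is not reported here. Depth was 8.23 to 21.5 M reads in atlas inputs, 3.42 to 20.2 in Mettl3 inputs, 10.8 to 24.6 in atlas IP, 0.819 to 22.9 in Mettl3 IP and 4.68 to 20.0 in Igf2bp2 libraries. The members and lists were chosen with earlier results of these data known. The added alternatives, the CPM scale (counts scaled to the same total in each library), its use with summed copies, and leaving out the types labelled CD4, CD8 and Monocyte, were chosen after seeing the data.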

Additional observations from a re-analysis of the deposited data

How the results depend on the processing

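With Ly6a, Ly6c1 and Ly6c2 summed to 1 value, 3 of 3 values differed among the 16 types, 24 of 45 pairs of value and step passed, and 0 of 3 passed on the Mettl3 average. Without the types labelled CD4, CD8 and Monocyte, enrichment differed among types for 1 member, and 1 pair of member and type passed. On the Mettl3 average, edgeR on recovered reads called 1 member and averaging to 2 values per genotype left 0. Igf2bp2 gave 1 call, Ly6d, with DESeq2 (151 of 18546 genes called) and 1 with no filter. Leaving out 1 library gave 1 to 5 enrichment pairs, 1 to 3 members on the Mettl3 average and 0 to 3 pairs within Mettl3 types. Over all genes, the main fits called 21% of gene and step pairs and 3.29% of enrichment pairs. They called 10.1% of genes on the Mettl3 average and 0.419% of pairs within Mettl3 types. The cause of the differences between settings was not tested.

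Whether replicate numbers pair the samples was not settled. Same-numbered deviations correlated above 0.1 in 16 of 120 pairs of groups in atlas inputs and in 57 of 91 in Mettl3 inputs. In Mettl3 inputs the median r was 0.16 and the highest 0.49. The main Mettl3 fit used no such pairing, so its p-values take the libraries as independent. With replicate number as a block, 1 of 35 Mettl3 pairs within types passed, against 0.419% of all pairs in the main fit. Ly6e then passed on the Mettl3 average (0.59, limma adjusted p = 0.0379).

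Signs turned for Ly6e from GMP to Monocyte on the CPM scale (-1.197, also with copies summed), and for the Mettl3 enrichment of Ly6a without 3 doubtful IP libraries (-0.062), 1 with 0.819 M reads and 2 with over 50% of reads in 10 genes. Leaving out 1 library took the Mettl3 enrichment of Ly6c2 from -0.73 to 0.00350 and of Ly6d from -0.28 to 0.54. Ly6c1 and Ly6c2 below 10 CPM rest on few reads, which limits folds there.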
